A study of Bos taurus with 9 samples.

Results

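The baseline described here is the polyadenylated transcriptome of control bovine (Bos taurus) blastocysts at day 8. It rests on 3 of the study's 9 RNA sequencing libraries, those labelled as controls, made from pools of 10, 10 and 11 embryos and called pools 1, 2 and 3. In every library of the study, cumulus-oocyte complexes were matured for 24 h, fertilised in vitro and cultured in a shared embryo medium under 5% CO2 and 20% O2, and blastocysts were frozen at day 8. The control maturation medium held 5.5 mM glucose, along with serum, pyruvate, FSH and estradiol. The other 6 libraries, from complexes matured with less glucose, were not used and no media are compared. The members are all 22127 genes of the deposited count table, ranked by mean CPM (the share of a library's counts, as counts per 1000000) over the 3 pools. The labels do not say that the pools came from separate cultures, so the spread between them may be technical.

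A blastocyst is the stage at which the embryo first holds distinct cell types. An outer epithelium, the trophectoderm, will build the placenta, and it pumps sodium inward so that water follows and fills the blastocoel. Within it lies the inner cell mass, which sorts into the epiblast, the source of the body, and the hypoblast, the source of the yolk sac lining. In cattle the blastocyst does not implant at once, and the trophectoderm secretes interferon tau, the signal by which the mother recognises pregnancy.

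The summed estimated counts were 55611205 in pool 1, 70932864 in pool 2 and 67169114 in pool 3. A gene was called detected at a mean of at least 1 CPM, which 13291 genes reached. Another 5295 genes had some count below that level, and 3541 had none in any pool. A count of 0 allows up to 3 counts, or 0.0539, 0.0423 and 0.0447 CPM in the 3 pools, for counting error only. CPM is a share of the library and carries no correction for transcript length. The order of genes is therefore an order of read shares, and no statement is made on which of 2 genes had more molecules.

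The counts were concentrated in few genes. In order of mean CPM, 16 genes held 10% of the counts, 112 held 25%, 631 held 50% and 4903 held 90%. The 100 highest genes held 23.4%, 24.1% and 24.2% of the counts in pools 1, 2 and 3, a mean of 23.9% ± 0.429 (SD, n = 3). The head of the ranking was stable in membership, since 85 genes were among the 100 highest of every pool, and 25 genes among the 30 highest of every pool. Of the 22127 genes listed, 21643 were protein-coding, and these took 99.9% of the counts. The rest were pseudogenes and segments of immunoglobulin and T cell receptor genes. No other noncoding class was listed, so the 99.9% does not describe the embryo's noncoding RNA. Genes with no symbol took 2.89%.

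**Figure D1:**
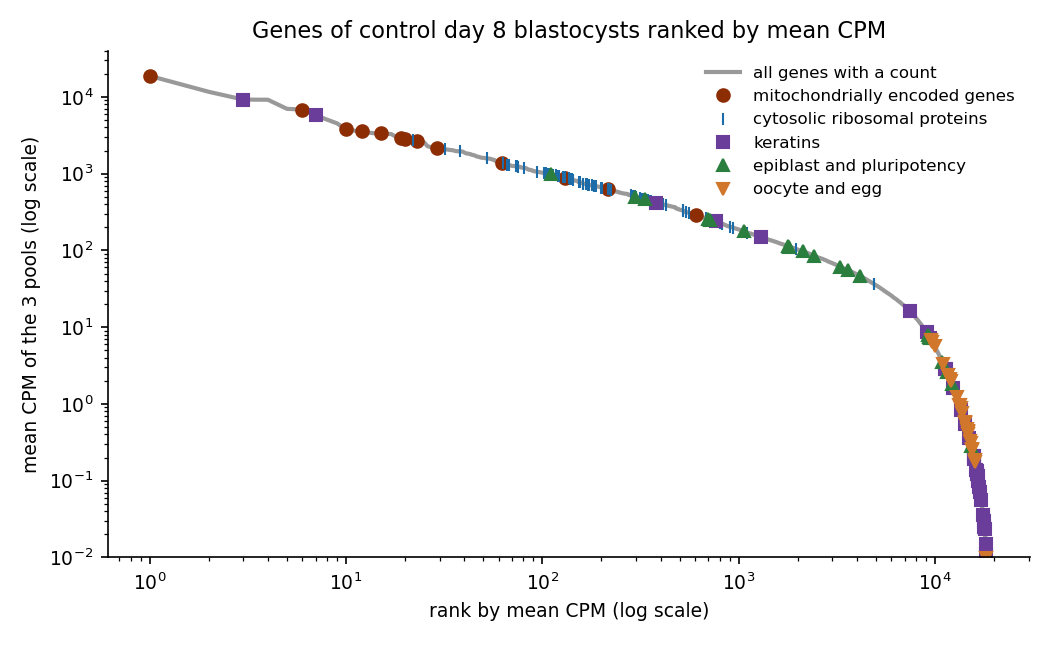
Mean CPM over the 3 control pools (vertical axis, log scale) against the rank of the gene (horizontal axis, log scale), as a grey line over all genes with a count and symbols for members of 5 lists. The 3 oxidase genes of the mitochondrial genome, KRT8 and KRT18 sit among the 10 highest, ribosomal protein genes are dense within the 1000 highest, and oocyte genes lie at the low end.

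The gene with the highest count was COX1, the mitochondrially encoded first subunit of cytochrome c oxidase, at 17240, 19955 and 19253 CPM in pools 1, 2 and 3. EEF1A1, which brings aminoacyl-tRNAs to the ribosome, was second at 12742, 10746 and 11508 CPM. Pool 1 was the lowest for the first gene and the highest for the second, and in both the pools lay within 1.16-fold to 1.19-fold of each other. The keratin KRT8, an intermediate filament protein of simple epithelia, followed at 7999, 9497 and 10224 CPM. Its filament partner KRT18 stood at 4869, 6030 and 6454 CPM. The 2 keratins had the same order of pools, with pool 1 lowest. The actins ACTB (8644, 9171 and 9780 CPM) and ACTG1 (6449, 6992 and 7568 CPM) lay between them and had that order too.

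The remaining genes of the 10 highest were COX3, FN1, EZR and COX2. FN1, fibronectin of the extracellular matrix, was at 5075, 5369 and 4756 CPM. EZR, ezrin, which ties the plasma membrane to the actin cortex of microvilli, was at 4155, 4453 and 4975 CPM. COX2 here is the mitochondrial oxidase subunit, at 4079, 3578 and 3649 CPM, and not the prostaglandin synthase of the same nickname.

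Ranks 11 to 30 mixed energy, folding and cortex genes. CKB, brain-type creatine kinase, which buffers ATP, was at 3307, 3786 and 3828 CPM. The chaperones HSP90AA1 (2910, 3825 and 3564 CPM) and HSPA8 (3385, 3262 and 3196 CPM) lay in this range, as did the small heat shock protein HSPB1 at 1795, 2701 and 2347 CPM. HSPB1 differed most between the pools among these 3, at 1.50-fold. MYH9, non-muscle myosin heavy chain, had 3700, 2899 and 3345 CPM, and the actin-binding LASP1 had 2552, 2603 and 2517 CPM. ODC1, ornithine decarboxylase of polyamine synthesis, was at 2018, 2316 and 2209 CPM, and PSAP, the precursor of the saposins that help break down lysosomal lipids, was at 2348, 2119 and 1969 CPM. EEF2, RPS2 and PABPC1 of the translation machinery had means of 3361 ± 283, 2718 ± 172 and 2224 ± 33.9 CPM (SD, n = 3). The mitochondrial genes ATP6, ND4, CYTB, ND1, ND2 and ND5 filled 6 more places, with means from 2181 to 3552 CPM. The last 2 of the 30 highest, ENSBTAG00000052165 (2906, 2853 and 3308 CPM) and ENSBTAG00000019801 (2337, 2570 and 2797 CPM), had no symbol in the table.

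Families were described with 46 gene lists, which covered 1925 genes and 38.0% of the counts, and 5 lists were added after the data were seen. A list's share is the percent of all counts that its members took. For the spread between pools, a gene with a mean of at least 5 CPM was called over 2-fold when its highest pool exceeded its lowest by more than 2 times. Of the 10201 genes at that level, 435 were over 2-fold, which is 4.26%, and each list's count stands beside that percentage. The percentage fell with level, from 13.6% at 5 to 10 CPM to 3.03% at 10 to 100 CPM and 1.42% above. A list of genes with high counts and none over 2-fold is therefore near the share for genes of like level. The median gene had a highest pool 1.24 times its lowest. Over all 10201 genes, pool 1 was the highest for 48.0% and the lowest for 30.8%. These 2 shares depend on scaling, and with TMM factors they were 36.3% and 41.7%. Kallisto divides reads among near-identical copies by estimation, so single members of large families, and genes with processed copies such as those for ribosomal proteins and actins, are less certain than the family sums.

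Of all the lists, cytosolic ribosomal proteins took the largest share. The 86 cytosolic ribosomal protein genes took 5.85%, 5.77% and 5.77% of the counts, a mean of 5.80% ± 0.0468 (SD, n = 3), and 78 of them were among the 1000 highest genes. RPLP0 of the ribosomal stalk was at 2159, 1923 and 2150 CPM, and RPS3 of the small subunit at 2005, 1911 and 1949 CPM. None of the 83 members with at least 5 CPM was over 2-fold, and their median ratio of highest to lowest pool was 1.10. Translation factors took 3.51% ± 0.148, of which EEF1A1 made up 33.2%, and TPT1, a growth-related protein that binds elongation factors, was at 1827, 1563 and 1536 CPM. Of 62 such factors, 1 was over 2-fold. Splicing factors of the hnRNP and SR families, a list added after the data were seen, took 1.40% ± 0.0468. HNRNPA1 led them at 1632, 1702 and 1502 CPM, HNRNPA2B1 followed at 1335, 1535 and 1359 CPM, and none of 30 members was over 2-fold.

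The 13 protein genes of the mitochondrial genome took 4.93%, 5.36% and 4.75% of the counts, a mean of 5.01% ± 0.316 (SD, n = 3), and 10 of them were among the 100 highest genes. Pool 2 was the highest for 11 of the 13 (25.2% for all genes), and none was over 2-fold. COX1 alone supplied 37.5% of the family. ND2, a subunit of complex I, was the most uneven of those in the 30 highest, at 3198, 2666 and 2114 CPM. The 89 nuclear genes of oxidative phosphorylation took less, 1.87% ± 0.0676, and 2 of 83 were over 2-fold. Both were lowest in pool 1, as were 58 of the 83, or 69.9% against 30.8% for all genes, with a median pool 1 level of 0.911 times the mean of the other pools. ATP5F1A and ATP5F1B, the catalytic core subunits of ATP synthase, nonetheless stood at 1795, 1825 and 1848 CPM and at 1780, 1727 and 1714 CPM. UQCRC1 and CYC1 of complex III were at 593 ± 52.5 and 568 ± 55.6 CPM. Mitochondrial ribosomal proteins took 0.489% ± 0.0191, with MRPL38 leading at 123, 151 and 152 CPM and none of 77 over 2-fold.

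Genes of the cytoskeleton and of epithelium were prominent near the top of the ranking. Actins, tubulins and cortical proteins took 4.67% ± 0.152 (SD, n = 3), and 12 of the 38 were among the 100 highest genes. Of 37 members, 1 was over 2-fold. Keratins took 1.37%, 1.64% and 1.75%, and KRT8 with KRT18 made up 94.6% of that. Of 56 keratin genes, 11 were detected, 22 lay under 1 CPM and 23 were at 0 in all pools. KRT19, the small partner of KRT8 in many simple epithelia, was at 313, 446 and 502 CPM, lowest in pool 1. KRT5, a basal keratin of layered epithelia, went the other way, at 353 CPM in pool 1 against 177 and 187. KRT5 spread 1.99-fold and so stayed under the limit. Of 8 keratins with at least 5 CPM, 1 was over 2-fold, KRT15, at 4.03, 12.8 and 4.90 CPM, named once its values were seen. Annexins and S100 proteins, which bind calcium and membranes, took 0.584% ± 0.0159, with ANXA6 at 1623, 1506 and 1706 CPM, ANXA2 at 1636, 1476 and 1532 CPM and S100A14 at 803, 900 and 918 CPM. Of 18 such genes, 1 was over 2-fold. Collagens spread more widely. They took 0.152% and 9 of 17 were over 2-fold. Each of the 9 was highest in pool 1, as were 224 of the 435 over all genes. The basement membrane chains COL4A1 (440, 428 and 387 CPM) and COL4A2 (174, 192 and 180 CPM) were the leading members that kept close.

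Protein folding and turnover lists held few or no genes over 2-fold, though some had a common order of pools. Heat shock proteins and chaperonin subunits took 2.03% ± 0.0810, with none of 58 over 2-fold and HSP90AB1 at 1908, 2019 and 1929 CPM. Proteasome subunits took 0.627% ± 0.0350, with none of 47 over 2-fold. PSMD2 led them at 407, 425 and 415 CPM. PSMD3 and PSMC1 spread more, at 248, 311 and 316 CPM and at 228, 296 and 288 CPM. Pool 2 was the highest for 30 of the 47, or 63.8% against 25.2% for all genes. Pool 1 was the lowest for 25, or 53.2% against 30.8%. Cathepsins and other lysosomal proteins took 0.906% ± 0.0549, with none of 27 over 2-fold. Pool 1 was the highest for 18 of the 27, or 66.7% against 48.0% for all genes. CTSD, the aspartic protease of the lysosome, was at 1400, 1349 and 1470 CPM, and the cysteine protease CTSV at 1480, 1066 and 1014 CPM. Endoplasmic reticulum folding and stress response genes took 0.582% ± 0.0165, led by the lectin chaperones CANX (1020, 1008 and 1063 CPM) and CALR (844, 764 and 808 CPM), with 1 of 20 over 2-fold.

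Among 359 solute carrier genes, 238 were detected and they took 2.45% ± 0.125 of the counts. SLC25A6, which exchanges ADP and ATP across the inner mitochondrial membrane, was at 1891, 1961 and 2407 CPM. SLC2A3, SLC9A3R1 (the scaffold NHERF1, which binds ezrin and is not itself a carrier) and SLC7A4 were next. SLC9A3R1 had 1748, 1991 and 2192 CPM, and SLC7A4 1146, 1284 and 1340 CPM. Of 183 carriers, 15 were over 2-fold, or 8.20% against 4.26% for all genes. Zinc finger genes of the ZNF series, with 314 members, took only 0.472% ± 0.0288, and 6 of 161 were over 2-fold. ZFP42, also known as REX1, led that list at 163, 185 and 185 CPM, then ZNF207 at 184, 179 and 161 CPM. Histone genes took 0.201% ± 0.00524, led by the variants H3-3A (602, 571 and 474 CPM), H3-3B (513, 511 and 504 CPM) and H2AZ1 (393, 452 and 422 CPM). Most replication-dependent histone transcripts lack a poly(A) tail, and 49 of the 78 histone genes lay under 1 CPM or at 0. Of 13 histone genes, 2 were over 2-fold.

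**Figure D2:**
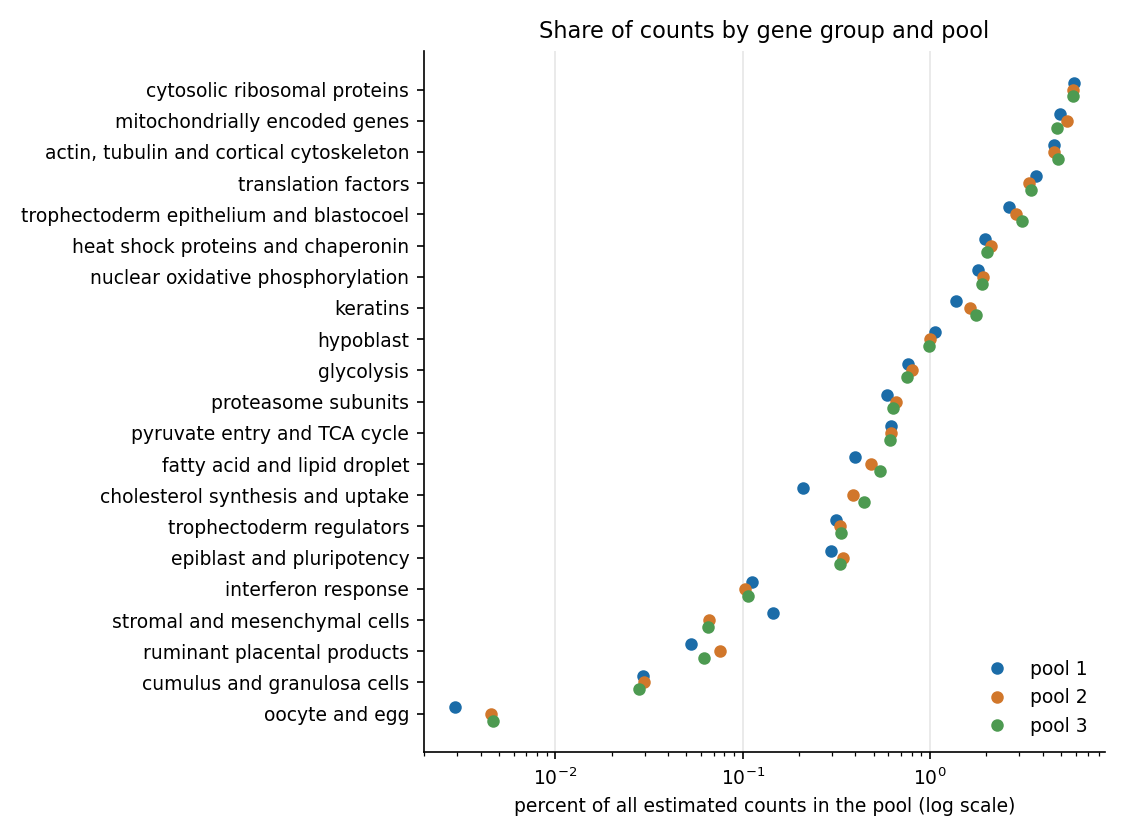
Percent of all estimated counts (horizontal axis, log scale) taken by each of 21 gene lists, with 1 point for each control pool. Ribosomal proteins, mitochondrially encoded genes and the cytoskeleton take the most, at means of 5.80%, 5.01% and 4.67%, and the points of the cholesterol and stromal lists lie farthest apart relative to their level, along with those of the oocyte list.

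The labelled stage was checked against its defining markers. Markers of all 3 blastocyst lineages were present in every pool. Counted over the epiblast, hypoblast and both trophectoderm lists, 101 of the 110 markers matched were detected by their mean over the pools. Of all 22127 genes, 13291 passed the same limit. The epiblast marker SOX2 was not matched and is not in the count. In bulk samples, fewer cells of a type and less RNA per cell cannot be told apart, so levels of lineage genes do not give cell numbers.

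Epiblast and pluripotency genes took 0.324% ± 0.0236 of the counts, and 19 of 21 were detected. POU5F1, which encodes OCT4 and in cattle is also made in the trophectoderm for some days, was at 950, 979 and 1008 CPM, the highest of the list. UTF1, a chromatin protein of pluripotent cells, was at 396, 555 and 561 CPM. The de novo DNA methyltransferase DNMT3B was at 314, 562 and 510 CPM, and SALL4, a zinc finger partner of OCT4, at 233, 258 and 280 CPM. Pool 1 was the lowest for each of these 4. NANOG, a core pluripotency factor, was much lower in count, at 36.0, 55.6 and 48.6 CPM. DNMT3L was at 0 in all pools. Of 16 epiblast genes with at least 5 CPM, 1 was over 2-fold. That gene, chosen after its values were seen, was LEFTY2, an inhibitor of the Nodal pathway, at 3.18, 10.4 and 7.98 CPM.

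Hypoblast genes took 1.02% ± 0.0394, and 21 of 24 were detected. FN1 supplied 49.8% of that share, and it is not restricted to this lineage. LRP2, the endocytic receptor megalin, was at 1243, 893 and 1061 CPM, and SPARC, a matrix-binding glycoprotein of parietal endoderm, at 1100, 819 and 999 CPM. Both were highest in pool 1. The transcription factors of the lineage had another order of pools. GATA6, an early hypoblast factor, was at 500, 587 and 648 CPM. GATA4, which follows it, was at 38.8, 40.5 and 48.8 CPM. SOX17 was at 7.26 CPM in pool 1 against 17.7 and 20.8. All 3 factors were lowest in pool 1, and SOX17 was 1 of 2 hypoblast genes of 21 over 2-fold. The other, LAMB1, a basement membrane laminin chain named only once its values were known, was at 380, 188 and 198 CPM.

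Trophectoderm regulators took 0.327% ± 0.0111, and 26 of 28 were detected. The nuclear receptor ESRRB led at 670, 669 and 681 CPM. KLF5, a factor shared by trophectoderm and inner cell mass, was at 567, 579 and 597 CPM, and GATA2 at 391, 399 and 376 CPM. TFAP2C, an AP-2 factor of the trophoblast, was at 291, 292 and 278 CPM. The pools of these 4 lay within 1.06-fold. TEAD4, the DNA-binding partner of YAP that starts the lineage in mouse, was as even at 111, 105 and 106 CPM. CDX2, a homeobox factor of trophectoderm identity, was at 94.8, 146 and 162 CPM, and GATA3 at 87.8, 117 and 117 CPM. Pool 1 was the lowest for both, and CDX2 spread 1.71-fold. EOMES and ELF5, trophoblast stem cell factors in mouse, lay under 1 CPM in every pool. Of 23 regulators with at least 5 CPM, 2 were over 2-fold. Pool 1 was the lowest for 14 of the 23, or 60.9% against 30.8% for all genes. With TMM factors it was the lowest for 19, or 82.6% against 41.7%.

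The epithelial and blastocoel genes took 2.63%, 2.89% and 3.09%, with 35 of 37 detected, and KRT8 and KRT18 made up 52.4% of that. CLDN6, a tight junction claudin of embryonic epithelium, was at 1679, 1912 and 2091 CPM. The rest of the list, given here although outside the naming rule, covered each step of forming a sealed cavity. CDH1, E-cadherin, was at 1268, 969 and 978 CPM, the highest in pool 1. ATP1B3, a beta subunit of the sodium pump, was at 764, 840 and 851 CPM, and the alternative subunit ATP1B1 at 31.9, 27.1 and 26.1 CPM. The water channel AQP3 was at 267, 340 and 313 CPM, while AQP8 was at 0 in all pools. Of 35 epithelial genes, 1 was over 2-fold.

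**Figure D3:**
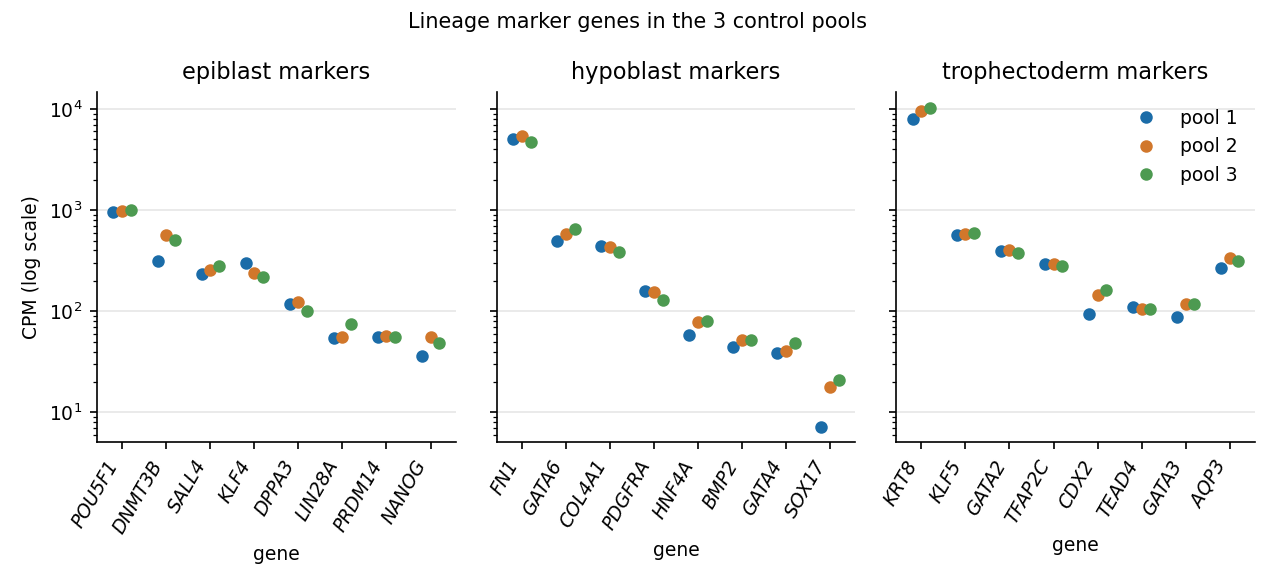
CPM (vertical axis, log scale) of 8 epiblast, 8 hypoblast and 8 trophectoderm markers, with 1 point for each control pool. The points of KLF5, GATA2 and TFAP2C nearly coincide, while SOX17, CDX2 and DNMT3B lie lower in pool 1.

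Products of the ruminant placenta that could be matched took a small share of the counts. The list took 0.0636% ± 0.0115 of the counts, and 10 of 20 members were detected. Another 5 names on the list matched no gene and are not in the sum. PTGS2, the inducible prostaglandin synthase, supplied 72.7% of that share, at 380, 551 and 455 CPM. PTGES, which makes prostaglandin E, was at 61.1, 62.0 and 65.9 CPM. The pregnancy-associated glycoprotein gene PAG2 was at 39.7, 45.1 and 23.4 CPM, and SSLP1, a secreted protein of the Ly-6 family, at 14.9, 47.4 and 32.6 CPM. The interferon tau gene IFNT2 was at 1.71, 2.60 and 3.24 CPM. Interferon tau genes are near-identical copies, so the level of any one of them is uncertain. Of 6 placental genes with at least 5 CPM, 2 were over 2-fold.

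Interferon response genes took 0.107% ± 0.00407, with 30 of 31 detected and 3 of 26 over 2-fold. IFI27 was at 147, 149 and 184 CPM, IFI6 at 119, 94.4 and 126 CPM and the antiviral GTPase MX1 at 127, 87.1 and 89.8 CPM. OAS1X, of the family that makes oligoadenylates on sensing double-stranded RNA, was among the 15 genes with a symbol and the widest spread, at 5.07, 35.5 and 19.7 CPM. IFI27, IFI6 and MX1 were steadier, and none of them spread more than 1.46-fold.

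Oocyte genes left few counts. They took 0.00403% ± 0.000973 of the counts. Of 26 genes 9 were detected, led by DDX4, a germ cell helicase (8.15, 7.74 and 4.41 CPM), and OOEP (4.51, 10.2 and 4.84 CPM), TLE6 (5.63, 5.92 and 5.45 CPM) and KHDC3L (2.90, 3.59 and 3.60 CPM) of the subcortical maternal complex. Of 3 with at least 5 CPM, 1 was over 2-fold. Of genes linked to genome activation 4 were matched, at 0.0250% ± 0.00113 in all. The initiation factor EIF1AX held 86.2% of it at 213, 226 and 207 CPM. KLF17 was at 10.1, 7.89 and 5.69 CPM, ZSCAN4 at 6.31, 2.51 and 2.23 CPM, and none of 3 with at least 5 CPM was over 2-fold.

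Markers of cells that could accompany the embryos were looked for next. Cumulus and granulosa genes took 0.0291% ± 0.000870, with 13 of 19 detected and summed levels of 295, 297 and 281 CPM. VCAN, a matrix proteoglycan, was at 80.0, 77.3 and 73.5 CPM, the steroid enzymes CYP11A1 at 75.8, 66.0 and 71.7 CPM and HSD3B1 at 41.1, 48.6 and 49.5 CPM, and the aromatase CYP19A1 at 18.2, 29.0 and 17.9 CPM. Of the defining receptors, LHCGR was under 0.4 CPM in every pool, and AREG, the ligand that spreads the ovulatory signal, was at 0. Of 9 such genes with at least 5 CPM, 2 were over 2-fold.

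The other foreign cell lists were small. Blood and immune genes took 0.00879% ± 0.000718, of which the haemoglobin gene HBA gave 64.9% (54.2, 65.0 and 52.1 CPM), and PTPRC, the pan-leukocyte marker CD45, stayed under 0.08 CPM. HBG was at 15.6 CPM in pool 1 against 2.64 and 2.73, the 1 gene of 3 over 2-fold. Endothelial genes took 0.0131% ± 0.00154, with VWF at 55.4, 67.9 and 59.7 CPM and PECAM1 at 73.9, 60.4 and 42.2 CPM, but CDH5, the endothelial cadherin, was at 0. None of 3 was over 2-fold. Sperm genes took 0.0103% ± 0.00114, of which ODF2, also a centriole protein of body cells, gave 70.7% (85.6, 62.0 and 71.3 CPM). With HOOK1, a linker of cargo to microtubules (28.8, 27.3 and 26.6 CPM), it made up 97.4%, and PRM1, a sperm protamine, stayed under 0.5 CPM. None of 2 was over 2-fold. Oviduct and uterine genes took 0.00554% ± 0.00239, of which the mucin MUC1 gave 80.4% at 70.0, 26.3 and 37.4 CPM, and it was the 1 of 2 over 2-fold. Liver genes took 0.000662% ± 0.000110, and no member reached 5 CPM.

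Sugar uptake and breakdown genes were abundant in count, and none with at least 5 CPM was over 2-fold. Glucose transporters took 0.327% ± 0.0184, with none of 5 over 2-fold. SLC2A3, a high-affinity carrier, was at 2240, 1854 and 1972 CPM and supplied 61.7% of that. The fructose carrier SLC2A5 was at 574, 529 and 647 CPM, the widespread carrier SLC2A1 at 500, 568 and 555 CPM, and SLC2A8 at 117, 113 and 126 CPM. SLC2A2, the carrier of liver and beta cells, was at 0 in all pools. Glycolysis genes took 0.769% ± 0.0238, with none of 16 over 2-fold. PKM was at 1485, 1538 and 1542 CPM, GAPDH at 1420, 1592 and 1341 CPM, ALDOA at 1182, 1246 and 1180 CPM and PGAM1 at 964, 981 and 1010 CPM. Pentose phosphate genes, which yield NADPH and ribose, took 0.260% ± 0.0191, with none of 7 over 2-fold. The transketolase TKT was at 1064, 1094 and 1059 CPM.

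Genes for pyruvate entry and the citric acid cycle were nearly level between pools, at 0.616%, 0.618% and 0.608% of the counts. CS, citrate synthase, was at 995, 935 and 901 CPM, MDH2 at 571, 641 and 627 CPM and SDHA at 498, 527 and 556 CPM. None of 22 was over 2-fold. Ketone and monocarboxylate genes took 0.192% ± 0.00377, and 2 of 8 were over 2-fold. BSG, the chaperone of lactate carriers, was at 1234, 1225 and 1246 CPM, and SLC16A1, which carries lactate, pyruvate and ketone bodies, at 433, 475 and 528 CPM. The ketone-using enzymes ACAT1 and OXCT1 were at 136, 138 and 112 CPM and at 28.1, 23.9 and 26.9 CPM.

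Amino acid transporters took 0.216% ± 0.0219, and 2 of 13 were over 2-fold. SLC7A5, a carrier of large neutral amino acids, was at 463, 649 and 696 CPM and its heavy chain partner SLC3A2 at 254, 358 and 331 CPM, both lowest in pool 1. SLC1A1, a glutamate carrier, was level at 510, 503 and 512 CPM. Creatine and polyamine genes, added after the data were seen, took 0.769% ± 0.0551. Besides CKB and ODC1, the creatine carrier SLC6A8 was at 786, 924 and 732 CPM and OAZ1, the antizyme that restrains ODC1, at 364, 514 and 524 CPM. Of 10 members, 2 were over 2-fold. Iron, zinc and copper genes, also added afterwards, took 0.557% ± 0.0342, with 1 of 14 over 2-fold. The ferritin chains FTH1 and FTL were at 1965, 2057 and 2157 CPM and at 583, 664 and 689 CPM, the zinc importer SLC39A4 at 1213, 829 and 1293 CPM and the copper importer SLC31A1 at 697, 694 and 660 CPM. Antioxidant genes took 0.411% ± 0.0239, led by the peroxiredoxins PRDX1 (746, 1003 and 858 CPM) and PRDX2 (740, 798 and 751 CPM), and 1 of 25 was over 2-fold.

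Chromatin, growth and survival lists were small in share and held few or no genes over 2-fold. DNA methylation genes took 0.128% ± 0.0144, with none of 8 over 2-fold. DNMT3A was at 563, 590 and 607 CPM, TET1, which oxidises methylcytosine, at 122, 127 and 124 CPM, and DNMT1, the maintenance enzyme, at 38.0, 38.2 and 33.8 CPM. Histone modifiers took 0.259% ± 0.0113, led by HDAC1 (483, 586 and 483 CPM), the demethylases KDM5B (321, 299 and 313 CPM) and KDM1A (266, 332 and 314 CPM) and the acetyltransferase EP300 (251, 221 and 238 CPM), with none of 21 over 2-fold. Cell cycle and replication genes took 0.374% ± 0.00780, with none of 25 over 2-fold. The replicative helicase subunits MCM2, MCM7 and MCM5 were at 352, 361 and 408 CPM, at 321, 340 and 323 CPM and at 248, 275 and 331 CPM.

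Apoptosis genes took 0.153% ± 0.00842, with none of 13 over 2-fold. The survival genes MCL1 and BCL2L1 were at 357, 327 and 327 CPM and at 194, 178 and 192 CPM. Signalling ligands and receptors took 0.165% ± 0.00377, and 2 of 29 were over 2-fold. The receptors FGFR4 (176, 214 and 207 CPM), KIT (192, 181 and 147 CPM), IL6R (201, 162 and 145 CPM) and FGFR3 (157, 163 and 177 CPM) led. Imprinted genes took 0.118% ± 0.00399, with 19 of 22 detected and 1 of 13 over 2-fold. GNAS, in the row ENSBTAG00000052413, was at 495, 532 and 537 CPM, NAP1L4 at 178, 190 and 199 CPM, SNRPN at 65.5, 69.4 and 86.2 CPM and PEG10 at 30.0, 20.7 and 22.3 CPM. The growth factor IGF2 was at 35.7 CPM in pool 1 against 15.4 and 17.7, the 1 imprinted gene over 2-fold, and IGF2R, which clears it, at 168, 108 and 136 CPM, highest in pool 1 too.

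The pools differed little for most genes, and the spread shrank with the count. Of genes from 5 to 10 CPM, 13.6% were over 2-fold, against 3.03% from 10 to 100 CPM and 1.42% above that, and the median coefficient of variation over pools was 11.2% and 7.68% in the last 2 ranges. The common biological coefficient of variation, the spread beyond counting error in the edgeR model, was 0.231. Log2 CPM correlated across genes at r = 0.977 between pools 1 and 2, 0.974 between pools 1 and 3 and 0.989 between pools 2 and 3. Genes are not independent replicates, so these describe the pools only. Pool 1 stood apart: 252 and 294 genes were over 2-fold between it and pools 2 and 3, against 76 between pools 2 and 3. Of the 435 genes, 224 were highest and 166 lowest in pool 1. Without pool 1 the number over 2-fold was 73, and without pool 3 it was 267. Pool 1 also had the lowest summed count, and the part of depth in its differences was not tested.

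**Figure D4:**
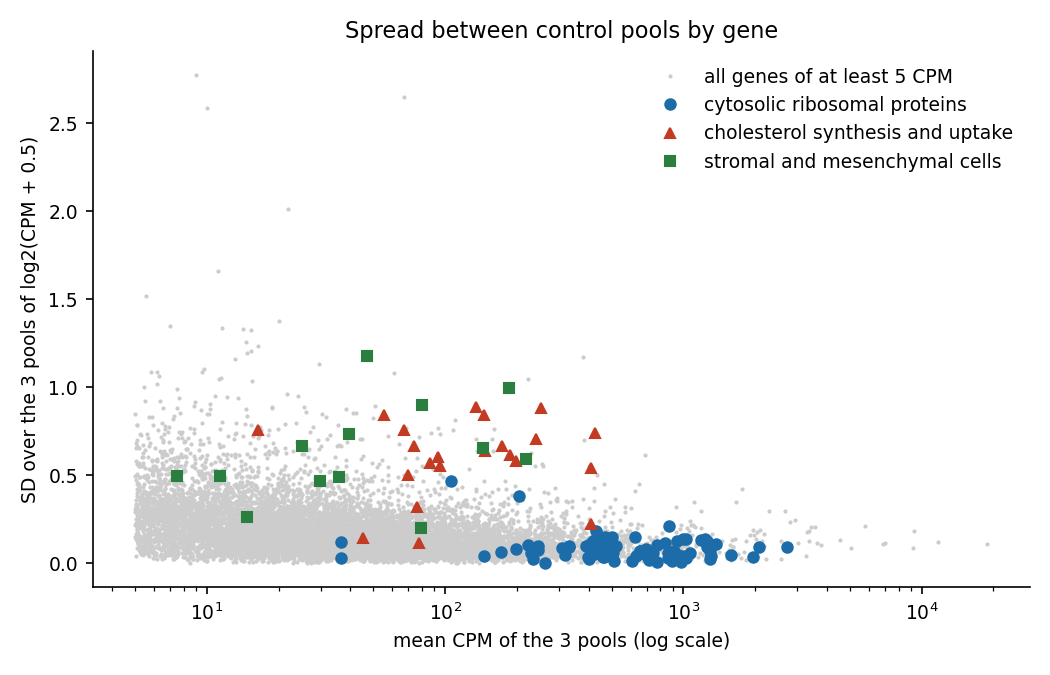
SD over the 3 control pools of log2(CPM + 0.5) (vertical axis) against mean CPM (horizontal axis, log scale), with a grey point for each gene of at least 5 CPM and 3 lists marked. The cloud narrows as mean CPM rises, most ribosomal protein genes lie near the bottom, and most cholesterol and stromal genes lie above the genes of like CPM.

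The steadiest genes among those with at least 50 CPM varied by about 1.01-fold or less in CPM. This holds for unscaled CPM only: with TMM factors the same 15 spread 1.06-fold to 1.08-fold, and the SD of FBXL14 rose from 0.137 to 2.77 CPM. FBXL14, a ubiquitin ligase subunit, was at 77.8, 78.0 and 77.9 CPM, RPL38 at 261, 262 and 261 CPM and the kinase GSK3A at 138 CPM in each pool. RPL14, TNKS1BP1, SEC24C, LDB1, DRG1, MICU2, CHTF18, TOMM5, MRPS18B, WRAP53, AMIGO2 and NCDN were the other 12 of the 15 with the smallest SD. They serve unrelated tasks, from translation and protein import to vesicle coats, and 3 of the 15 were ribosomal proteins of the cytosol or mitochondria.

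At the other end, the widest spread among genes with a symbol and at least 10 CPM was that of CLCA3, of a family of secreted regulators of chloride channels, at 28.3 CPM in pool 1 against 1.30 and 0.504. Its mean was 10.0 CPM, and 0.904 without pool 1. OXT, the oxytocin gene, ran the other way at 1.74, 19.3 and 12.2 CPM. EXTL1 (2.83, 18.2 and 13.7 CPM), a heparan sulfate chain enzyme, and CERS3 (4.48, 21.2 and 20.2 CPM), a ceramide synthase of barrier lipids, were also lowest in pool 1. So was TGM1, which crosslinks the envelope of barrier epithelium, at 10.3, 50.6 and 28.0 CPM.

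Other wide genes singled out pools 2 or 3. PTX3, a matrix protein of the expanded cumulus, was at 8.89, 32.1 and 4.93 CPM, and its mean of 15.3 CPM became 6.91 without pool 2. LTC4S, the leukotriene synthase, was at 4.53, 10.9 and 28.3 CPM, and CITED4, a transcriptional coregulator, at 5.86, 8.29 and 30.1 CPM, both highest in pool 3. Without pool 3 their means of 14.6 and 14.8 CPM were 7.71 and 7.08. The matrix protein TNC (21.1, 3.55 and 17.9 CPM) and the protease MMP2 (86.6, 21.6 and 74.3 CPM) were lowest in pool 2. CLEC14A (21.9, 6.64 and 5.30 CPM), the row ENSBTAG00000051082 of the cytolinker gene DST (19.2, 11.1 and 4.15 CPM) and POSTN, OAS1X and MAT2A completed the 15 widest. Among genes with no symbol, ENSBTAG00000034323 spread more than CLCA3 on the log2 scale, at 3.60, 132 and 65.6 CPM, and was chosen once its values were seen.

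Above 100 CPM, 29 of 2046 genes were over 2-fold. Pool 1 was the lowest for 19 of them and the highest for 9, and 10 belonged to the cholesterol list. Genes of cholesterol synthesis and uptake took 0.209%, 0.389% and 0.445% of the counts, a mean of 0.348% ± 0.123 (SD, n = 3). The list held 22 genes, and 17 were over 2-fold, or 77.3% against 4.26% for all genes. Pool 1 was the lowest for all 22, with a median level of 0.473 times the mean of the other pools. Between pools 2 and 3 none was over 2-fold. Without pool 1 the list's share was 0.417%.

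The cholesterol genes are given along the pathway, those beyond the 4 leading ones chosen after their values were seen. HMGCS1, the synthase that makes HMG-CoA, was at 220, 481 and 575 CPM. FDPS, which makes farnesyl diphosphate, was at 59.3, 165 and 180 CPM. Pool 1 lay below the other pools in each.

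SQLE, which oxidises squalene, was at 82.9, 169 and 187 CPM, and CYP51A1, which demethylates lanosterol, at 67.0, 167 and 200 CPM. DHCR7, the last enzyme of one branch of the pathway, was at 113, 289 and 357 CPM. INSIG1, which holds the regulator SREBP in the endoplasmic reticulum and is itself an SREBP target, was at 25.3, 70.8 and 69.8 CPM. The 5 members that stayed within 2-fold were the regulator SREBF2 (350, 402 and 478 CPM), SC5D, MVK, EBP and APOE, and these too were lowest in pool 1.

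Fatty acid genes had the same lowest pool in part. The fatty acid and lipid droplet list took 0.396%, 0.484% and 0.538%, and 2 of 18 were over 2-fold. Pool 1 was the lowest for 9 of the 18 and the highest for 7. FASN, fatty acid synthase, was at 1291, 1660 and 2315 CPM, and SCD, which desaturates stearate, at 203, 474 and 467 CPM. ELOVL6, which elongates palmitate, was at 375, 565 and 535 CPM, while ACSL3, which activates fatty acids, was level at 644, 684 and 658 CPM. In the list of fatty acid synthesis and SREBP-linked genes, added after the data were seen and sharing members with the last, pool 1 was the lowest for 11 of 15, or 73.3% against 30.8% for all genes, and 4 were over 2-fold. ACLY, which makes cytosolic acetyl-CoA, was at 381, 542 and 621 CPM there.

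Stromal and mesenchymal genes had the opposite order. They took 0.145%, 0.0661% and 0.0656% of the counts, a summed level of 1446, 661 and 656 CPM, and 14 of 19 were detected. Of 13 genes with at least 5 CPM, 8 were over 2-fold, or 61.5% against 4.26% for all genes. With TMM or RLE factors the number was 6. All 8 were highest in pool 1, as were 224 of the 435 over all genes. Over the 13, the median level in pool 1 was 2.03 times the mean of the other pools. Between pools 2 and 3 none was over 2-fold. COL1A1, a chain of fibrillar type I collagen, was at 345, 107 and 101 CPM, with a mean of 185 CPM that was 104 without pool 1. Its partner chain COL1A2 was at 332, 163 and 163 CPM.

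LUM, lumican, a proteoglycan that spaces collagen fibrils, was at 218, 127 and 88.2 CPM. ACTA2, smooth muscle actin, was at 133, 37.8 and 68.7 CPM, and POSTN, periostin of the matrix, at 89.7, 33.2 and 17.3 CPM. All were highest in pool 1. The transcription factors that define mesenchyme were near the lower limit, with PRRX1 at 1.10, 0.536 and 0.194 CPM and TWIST1 under 1 CPM in every pool, and the fibroblast protease FAP was at 0. COL1A1, COL1A2 and the other collagens of the stromal list also count among the collagens given above. In the same pool the epithelial list stood at 2.63% against 2.89% and 3.09%, and the cumulus list at 0.0295% against 0.0297% and 0.0281%. KRT8 and KRT18, both lowest in pool 1, made up 52.4% of the epithelial list. Of its 35 genes, 16 were lowest in pool 1, or 45.7% against 30.8% for all genes. Another 12 were highest there, or 34.3% against 48.0%. The part of the stromal genes or of other cell types in the differences of pool 1 was not tested.

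Serine, folate and methionine genes, added after the data were seen, took 0.237% ± 0.00690, with 3 of 18 over 2-fold in 2 directions. MAT2A, which makes the methyl donor S-adenosylmethionine, was at 421 CPM in pool 1 against 138 and 107, a mean of 222 CPM that was 123 without pool 1. PSAT1, an aminotransferase of serine synthesis, was at 83.0, 194 and 194 CPM, and PHGDH, the first enzyme of that route and chosen after its values were seen, at 53.7, 131 and 137 CPM. The other leading members were closer, with AHCY at 534, 515 and 505 CPM and the mitochondrial folate enzyme MTHFD1L at 516, 663 and 610 CPM.

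**Figure D5:**
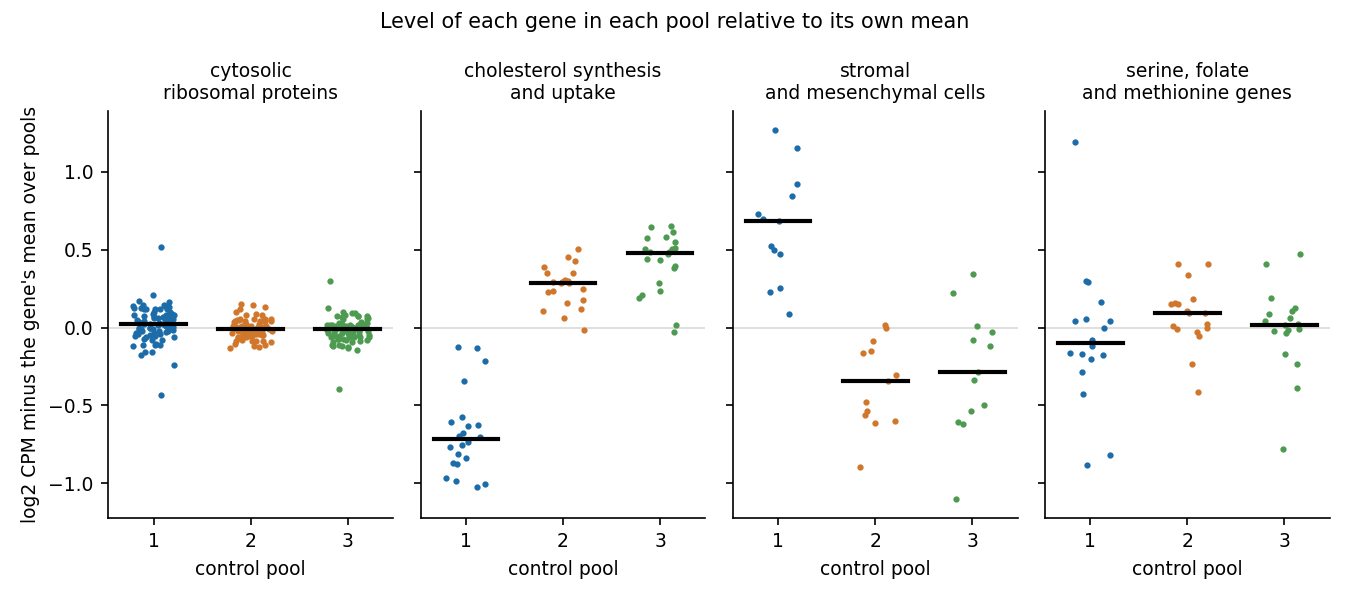
Log2 CPM of each gene minus its own mean over the pools (vertical axis), by control pool, for 4 lists, with genes of at least 5 CPM as points and the median as a bar. Cholesterol genes lie lowest and stromal genes highest in pool 1, while ribosomal protein genes centre on 0 in every pool.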

How the data were processed

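RNA was sequenced from pools of control blastocysts. Libraries were prepared with a NEBNext Ultra II kit after poly(A) selection, per the labels' protocols. Per the submitters' processing notes, fastp, kallisto, DESeq2 and the build bosTau9 were used. The strand setting, like the annotation and the tools' versions and roles, is not given in the sources used here. The authors deposited estimated counts per gene, 22.4% of them not whole in the control columns. The 6 columns of other media were not used.

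CPM is the estimated count divided by the library's sum, times 1000000, with no scaling factor. Counts were rounded to whole numbers for edgeR 4.0.16 (R 4.3.3, TMM, intercept only, genes of at least 1 CPM). DESeq2 1.42.0 served as an alternative, with pandas 2.3.3 and matplotlib 3.10.9 for tables and figures. The code was tested on simulated data. No pair of pools agreed within sampling noise: chi-square per degree of freedom was 71.3, 81.8 and 39.6. The table itself gave symbols for 17706 genes, a RefSeq table (ARS-UCD2.0, names only) for 323, and 4098 had none. SOX2, H19, XIST and a gene named IFNT were not matched and are not analysed here, and some genes the rule named are not reported here.

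No test was run, since all libraries are of 1 group. The rule named the 30 highest genes, the 4 highest detected members of each list, the 15 genes with the largest SD of log2(CPM + 0.5) from 10 CPM and the 15 with the smallest from 50 CPM, and genes of interest. Members, lists and rule were chosen with earlier results of these data known. Alternatives changed the scaling, the filter, the genes in the total and the pools used.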

Additional observations from a re-analysis of the deposited data

How the results depend on the processing

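No paired analysis was possible because only 1 group of libraries was used. The number of genes over 2-fold, 435 at 5 CPM, depended on the filter: it was 1693 from 1 CPM, 128 from 20 CPM and 6327 with no filter, and leaving out 1 pool gave 73 to 301, the lowest without pool 1. The common biological coefficient of variation of 0.231 was 0.370 with no filter, 0.138 from 20 CPM and 0.167 to 0.263 with 1 pool left out. Fewer than 3 pools also lower a count of this kind by construction. The 17 cholesterol genes over 2-fold became 0 to 16 and the 8 stromal genes 0 to 6 with 1 pool left out, both 0 without pool 1, alternatives added after the data were seen. With mitochondrial genes left out of the total, the 100 highest genes held 21.1%, ribosomal proteins 6.10% and nuclear oxidative phosphorylation genes 1.97%. The other 64 recomputed values stayed within their limits. The limit was 1.5-fold for a number of genes or the coefficient of variation, and the SD over the 3 pools for a share. A mean share with 1 pool left out cannot move by as much as that SD. Leaving out a pool was therefore no check of the shares. TMM or RLE scaling moved the means of named genes by at most 1.04-fold. It moved SDs more: with TMM that of the ribosomal share went from 0.0468 to 0.154 and that of the 100 highest genes from 0.429 to 1.24. Leaving out pool 1, 2 or 3 moved the means of 8, 4 and 2 named genes by over 1.5-fold. Levels per coding length were planned and not run, since no length table was used here. Unless another limit is given, counts over 2-fold leave out genes under 5 CPM, where the counts are low.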
